A study of Homo sapiens with 2 samples.

Results

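The H/ACA box small nucleolar RNAs (snoRNAs, gene symbols starting SNORA) and the small Cajal body-specific RNAs (scaRNAs, symbols starting SCARNA) were compared between 2 substates of H9, an established line of human embryonic stem cells. Members were the non-control probes of the array whose RefSeq accession belongs to a gene with such a symbol. The rule gave 117 of the 58201 non-control probes, from 116 of the 211 SNORA and SCARNA genes in the RefSeq gene table. Of these, 95 probes were for SNORA genes and 22 for 21 SCARNA genes, since SCARNA10 had 2 probes. All 117 member probes were well above background on both arrays, 95 of them gave a lower signal in substate 2, and their median difference was -0.24 on the log2 scale (1.18-fold lower).

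H/ACA RNAs fold into hairpins followed by the H box and the ACA box, and each pairs with a target RNA to choose a uridine that is turned into pseudouridine. SNORA genes mostly act on ribosomal RNA in the nucleolus and SCARNA genes on spliceosomal RNAs in the Cajal body. The RNAs are held by dyskerin (DKC1), NOP10, NHP2 and GAR1, and the same proteins bind the RNA subunit of telomerase (TERC). Most members lie in introns of a host gene and are cut out of the spliced intron, so that 1 transcript can give both a messenger RNA and a guide RNA. The symbol does not fix the type of every SCARNA gene. SCARNA2, SCARNA7, SCARNA9L and SCARNA17 carry C/D boxes, which guide ribose methylation, and SCARNA5, SCARNA6, SCARNA10 and SCARNA12 carry both kinds of box.

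Substate 1 was H9 at passage 35 and substate 2 was H9 at passage 50, each on 1 array, so passage cannot be told apart from substate. Both were grown in TeSR-E8 medium on Matrigel, an extracellular matrix preparation. Per the paper's methods H9 was moved to Matrigel at passage 35, so time on Matrigel, like passage, cannot be told apart from substate. In the study, typical colonies with strong R-10G epitope and almost no vimentin were called substate 1, and colonies with wide intercellular spaces, weak R-10G epitope and vimentin were called substate 2. Total RNA was labelled with Cy3 by a kit that primes on poly(A) tails. Mature snoRNAs have no such tail, and whether the probes read the mature RNA, an intron or an unspliced host transcript was not tested.

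With 1 array per group no difference has a replicate check, no p-value is given, and each difference compares these 2 libraries, as substate 2 minus substate 1. Of 60901 non-control spots, 57.4% in substate 1 and 54.7% in substate 2 were well above background, none was saturated, and the number of arrays limits the precision. Spots of replicated probes put the SD of a difference between single spots at 0.069 on the log2 scale, which covers noise within an array only. The 5 stem cell markers POU5F1, NANOG, SOX2, LIN28A and LIN28B were all well above background on both arrays, with differences from 0.10 to 0.42. The epithelial marker CDH1 differed by -1.47, VIM by 2.53 and ZEB1 by 2.54. Among 7 markers of other cells, SOX17, TBXT and PECAM1 were above background on neither array, while AFP (0.46), ACTA2 (0.36) and COL1A1 (-0.49) were above background on both, and PTPRC had probes that disagreed. Their part in the differences below was not tested. In RNA pooled from many cells, fewer cells of a type and less RNA per cell cannot be told apart.

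The ACA box stands 3 bases from the 3′ end of an H/ACA RNA, and it can be read for those members whose gene overlaps a microRNA hairpin in the RefSeq tables. This was so for 7 members, and for 5 of them the hairpin reached the trinucleotide before the last 3 bases, which was ACA in all 5. Of the 1562 hairpins in the table, 63% hold ACA at some position and 1.79% hold it at that distance from their own end. The 5 stretches are shown 5′ to 3′ as RNA, from RefSeq on GRCh38.p14, with the ACA trinucleotide in capitals, because they hold the box that gives the class its name. They cover between 41.2% (SCARNA16) and 65.4% (SNORA84) of the member and lie at chr17:77089417-77089493 (+) for SCARNA16, chr1:175968397-175968479 (-) for SCARNA3, chrX:154768596-154768656 (+) for SNORA36A, chr1:220200546-220200619 (-) for SNORA36B and chr9:92292461-92292547 (-) for SNORA84.
SCARNA16: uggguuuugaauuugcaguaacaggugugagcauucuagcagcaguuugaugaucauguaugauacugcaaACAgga
SCARNA3: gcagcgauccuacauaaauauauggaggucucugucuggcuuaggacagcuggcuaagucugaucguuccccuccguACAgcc
SNORA36A: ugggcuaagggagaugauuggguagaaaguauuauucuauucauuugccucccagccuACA
SNORA36B: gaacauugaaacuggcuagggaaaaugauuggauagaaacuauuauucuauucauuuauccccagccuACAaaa
SNORA84: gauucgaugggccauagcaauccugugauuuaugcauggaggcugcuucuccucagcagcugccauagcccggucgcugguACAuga

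SNORA84, from IARS1, read 1.32 in substate 1 and 0.63 in substate 2 on the normalised log2 scale, on which 0 is the 75th percentile of an array, a difference of -0.68. For SCARNA3, from COP1, the signals were 0.98 and 0.41, a difference of -0.56, whereas SCARNA16 was nearly level at 1.78 and 1.69. SNORA36A and SNORA36B are paralogs, so their probes may read both RNAs, and their values differed. SNORA36A, which lies in the dyskerin gene DKC1, had -0.59 and -1.07, and SNORA36B, from RAB3GAP2, had -2.37 and -2.27.

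Every member was detected. All 117 (100%) were well above background on each array and so on both, against 55.6% of all non-control probes in substate 1, 52.8% in substate 2 and 51.3% on both. Of the 189 probes for C/D box snoRNAs (SNORD genes), 137 (72.5%) and 134 (70.9%) were. Before normalisation the member signals ran from 25.4 to 23426 with a median of 590.6 in substate 1, and from 17.2 to 16566 with a median of 421 in substate 2. SCARNA15 was the dimmest on both arrays and SNORA57 the brightest. Across the 117 probes the normalised signals of both arrays gave a Pearson r of 0.990, a description in which the probes share 2 libraries.

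**Figure D1:**
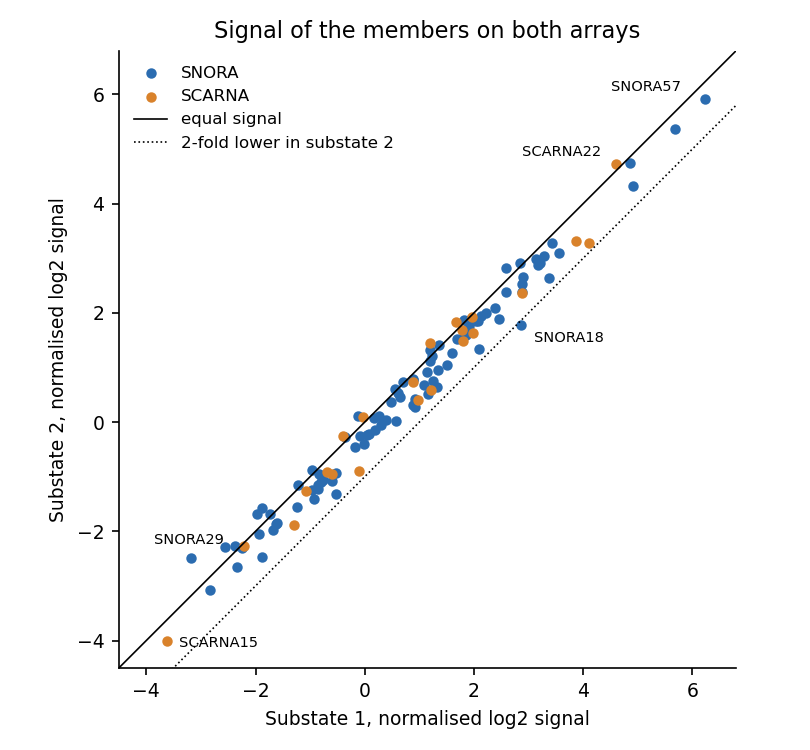
Normalised log2 signal of the 117 member probes, substate 1 on the x axis and substate 2 on the y axis, with SNORA probes in blue and SCARNA probes in orange. Most points lie a little below the solid line of equal signal, and only SNORA18 lies below the dotted line of a 2-fold lower signal.

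Most members were lower in substate 2, and by a small amount. The 95 lower members make 81.2% of 117, where 44% of the 29880 probes well above background on both arrays were lower. The quartiles of the members were -0.39 and -0.09, and their median of -0.24 stood beside 0.06 for all those probes. SNORA probes had a median of -0.24 with 78 of 95 lower, and SCARNA probes -0.27 with 17 of 22 lower. C/D box snoRNAs were lower in 127 of 133 probes with a median of -0.41, and all noncoding RNA probes of curated RefSeq accessions but the members, C/D box ones included, had a median of -0.02. Messenger RNA probes had a median of 0.09. A difference of at least 0.25 downwards was found in 57 members (48.7%), against 21.5% of probes, and one of at least 0.5 downwards in 20 members (17.1%), against 8.67%. Upwards, 4 members (3.42%) differed by at least 0.25, against 27.6% of probes.

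**Figure D2:**
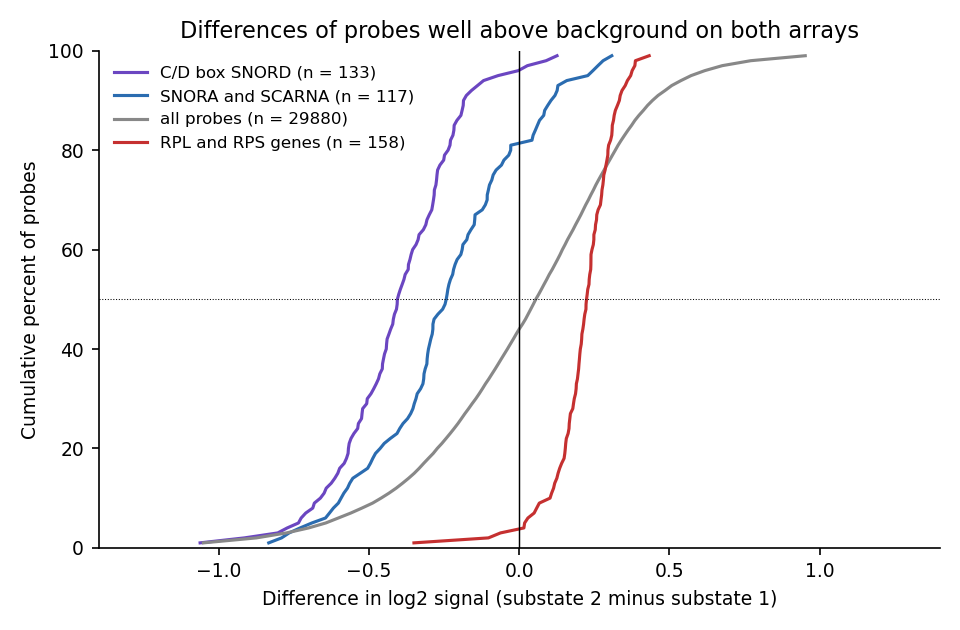
Cumulative percent of probes (y axis) against the difference in log2 signal, substate 2 minus substate 1 (x axis), for probes well above background on both arrays. The curve of SNORA and SCARNA probes (median -0.24) lies between that of C/D box SNORD probes (median -0.41) and that of all probes (median 0.06), and cytosolic ribosomal protein genes, RPL and RPS, lie to the right (median 0.22, which was 0.01 after loess centring and 0.04 after quantile normalisation).

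Large differences were few. Only SNORA18 was 2-fold or more lower (0.855% of members, against 1.67% of probes above background on at least 1 array), and 0 members were 2-fold or more higher, against 1.55%. By the Z-score over all probes, 0 members reached 2 and 0 reached -2, where 3.03% and 3.3% of all probes did. Those shares are not over a like set, since only 51.3% of all probes were well above background on both arrays, as the members were. With the mean and SD of probes well above background on both, SCARNA1, SCARNA12, SNORA18 and SNORA72 reached -2. Against the noise between spots, 79 members were lower and 8 higher by more than 2 SDs of a single-spot difference (0.14), and 30 lay within it. Passing this limit was common on these arrays. Over all probes well above background on both, the 30th percentile of the difference was -0.14 and the 60th was 0.14.

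**Figure D3:**
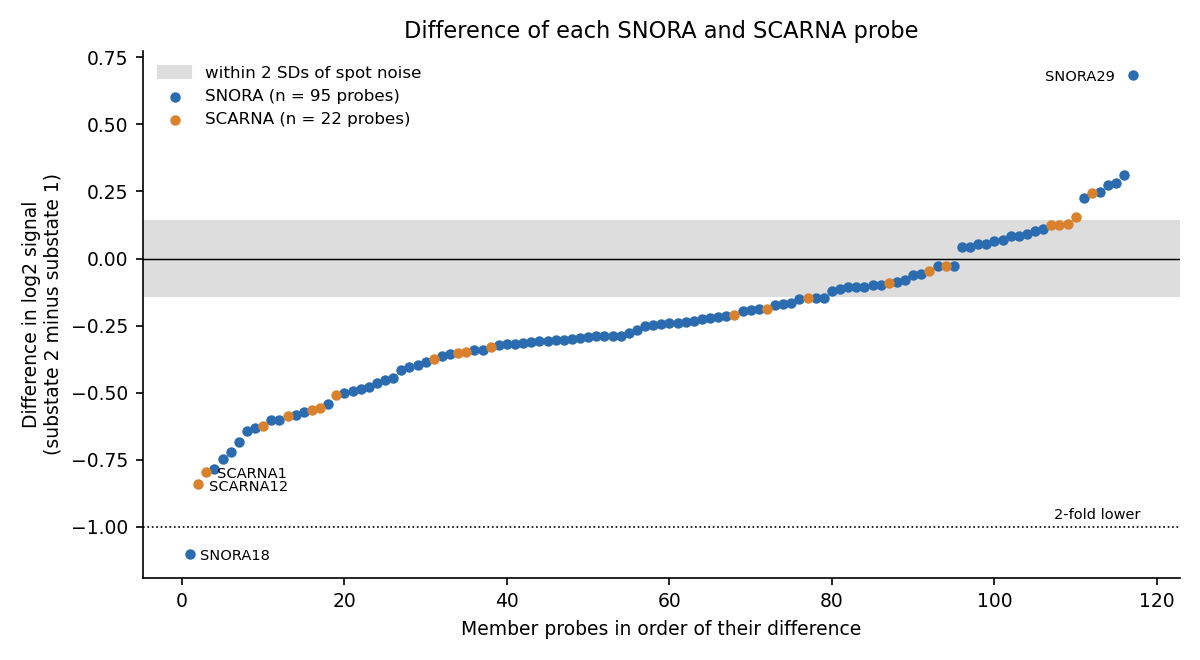
Difference in log2 signal, substate 2 minus substate 1 (y axis), of the 117 member probes in rank order (x axis), SNORA in blue and SCARNA in orange. The grey band spans 2 SDs of the difference between single spots, 0.14 to either side of 0, and 79 points lie under it and 8 above it. For all probes well above background on both arrays, its edges are near the 30th and 60th percentiles.

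The member with the lowest difference was SNORA18, from an intron of TAF1D, which encodes a subunit of the RNA polymerase I factor SL1. On the normalised log2 scale it had 2.87 and then 1.77, a difference of -1.10 (2.14-fold lower). SCARNA12, a scaRNA with both kinds of box in PHB2, followed with 4.11 and 3.27, a difference of -0.84. Then came SCARNA1, in the gene of the phosphatase inhibitor PPP1R8, with -0.11 and -0.90, a difference of -0.79. SNORA72, in the ribosomal protein gene RPL30, had -0.53 and -1.32, also a difference of -0.79. SNORA16B, in the phosphatase subunit gene PPP2R5A, had 2.08 and 1.34, a difference of -0.75. These 5 lay in 5 different hosts. Among those hosts, TAF1D (-0.47) and PPP2R5A (-0.14) were lower too, and PHB2 (0.21), PPP1R8 (0.44) and RPL30 (0.23) were higher.

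At the other end SNORA29, in the chaperonin gene TCP1, had the highest difference, with -3.18 in substate 1 and -2.50 in substate 2, a difference of 0.69 (1.61-fold higher). Its raw signals of 34.6 and 48.8 are among the lowest of the members, and with normexp background correction the difference was 0.50. SNORA20, which lies in the same host, had a difference of -0.31, while TCP1 itself had 0.30. The next 4 were SNORA14B in TOMM20 (0.31, and 0.11 with normexp correction), SNORA5C in TBRG4 (0.28), SNORA30 in SRCAP (0.27) and SNORA80E in KHDC4 (0.25). TBRG4 (0.36) and SRCAP (0.21) were higher as well, TOMM20 was level at -0.01 and KHDC4 was lower at -0.32.

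The 5 probes with the highest signal are given by their raw intensities in substate 1 and substate 2. SNORA57 gave 23426 and 16566, SNORA67 gave 16003 and 11416, and SNORA16A gave 9500 and 5489. SNORA11D gave 9058 and 7422, and SCARNA22 gave 7604 and 7277. After normalisation their differences were -0.31, -0.30, -0.60, -0.10 and 0.12, where all members ran from -1.10 to 0.69. Signals of different probes do not rank the RNAs. The median difference was -0.25 in the dimmest 39 members, -0.24 in the middle 39 and -0.24 in the brightest 39, with 29, 32 and 34 of them lower. The 97 members of up to 150 bases had a median of -0.24 with 77 lower, and the 20 longer ones -0.30 with 18 lower. Across members the difference had a Pearson r of -0.18 with mean signal and -0.14 with length, over 117 probes of the same 2 libraries.

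Among the SCARNA genes, the 4 that carry both kinds of box were lower with all 5 probes. SCARNA12 is given above. SCARNA5 had 1.21 and 0.58, a difference of -0.62, whereas SCARNA6, from the same host ATG16L1, had -2.22 and -2.26, a difference of -0.05 that changed sign under quantile normalisation and normexp correction. The 2 probes of SCARNA10, in NCAPD2, gave -0.59 and -0.19, so probes of a single RNA differed by more than 2 SDs of spot noise. The C/D type was lower in SCARNA17 (-0.51), SCARNA2 (-0.35) and SCARNA9L (-0.15) and higher in SCARNA7 (0.13).

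In the 13 SCARNA genes of the H/ACA type, 9 were lower and the median was -0.21. Beside SCARNA1 and SCARNA3, the lower ones were SCARNA13 (-0.56), a tandem of H/ACA domains in SNHG10, SCARNA15 (-0.37), SCARNA8 (-0.35), SCARNA14 (-0.33), SCARNA4 (-0.21), SCARNA16 (-0.09) and SCARNA23 (-0.03). SCARNA20 (0.24), SCARNA18 (0.16), SCARNA11 (0.13) and SCARNA22 (0.12) were higher. With normexp correction 7 of the 13 were lower, with a median of -0.01, and SCARNA15 changed sign to 0.07 and SCARNA23 to 0.10. SCARNA22 turned to -0.02 after loess centring. Spliceosomal RNAs are the targets of scaRNAs, and those with a named probe differed by 0.36 (RNU11), 0.30 (RNU12), 0.20 (RNU4ATAC), 0.02 (RNU2-1) and -0.83 (RNU6ATAC). They showed no common direction.

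Values of families of near-identical copies are uncertain as separate measurements, because a probe can bind several copies. Of 12 SNORA families with several members, all members were lower in 6, all were higher in 2 and the signs were mixed in 4. All 7 SNORA70 probes were lower, between -0.32 and -0.16, although their genes lie in 7 different hosts. The 4 SNORA71 probes lay between -0.36 and -0.11, with 1 of them higher under normexp correction. SNORA16A and SNORA16B had -0.60 and -0.75. SNORA5A, SNORA5B and SNORA5C differed by 0.22, 0.08 and 0.28 and were higher under every scaling, by 0.02 at the least. SNORA80A, SNORA80B and SNORA80E were higher by 0.07, 0.11 and 0.25, with 1 of the 3 lower after loess centring and after quantile normalisation. The mixed families were SNORA2 (-0.49 to 0.09), SNORA11 (-0.24 to 0.08), SNORA14 (-0.24 and 0.31) and SNORA36 (-0.48 and 0.10). SNORA3 (-0.64 and -0.28), SNORA38 (-0.12 and -0.06) and SNORA74 (-0.32 and -0.15) were lower, and with normexp correction both SNORA38 probes were higher.

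The host of each member was taken as the gene that encloses it in the gene table. A single gene enclosed 106 members, several genes enclosed 9, and no gene enclosed SCARNA2 and SNORA50C. For 100 members in 77 hosts, the host was measured on both arrays. The median difference was 0.20 over these hosts, with 57 higher and 20 lower (medians of 0.07 to 0.25 and 15 to 29 lower across scalings), and -0.24 over their members. For comparison, 59.8% of all named genes measured on both arrays were higher, with a median of 0.08. Of the 100 members, 55 were lower in a host that was higher, 25 were lower with their host, 14 were higher with their host and 6 were higher in a host that was lower. A member lay below its own host in 80 of 100 cases, with a median gap of -0.38 (76 to 80 cases and -0.38 to -0.29 across scalings). This count does not single out member and host pairs, since 80 of the 100 members were lower and 57 of the 77 hosts higher. In hosts that were higher 55 of 69 members were lower, and in hosts that were lower 25 of 31 were. The member and host differences had a Pearson r of 0.22 over 100 members, which share hosts and libraries.

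**Figure D4:**
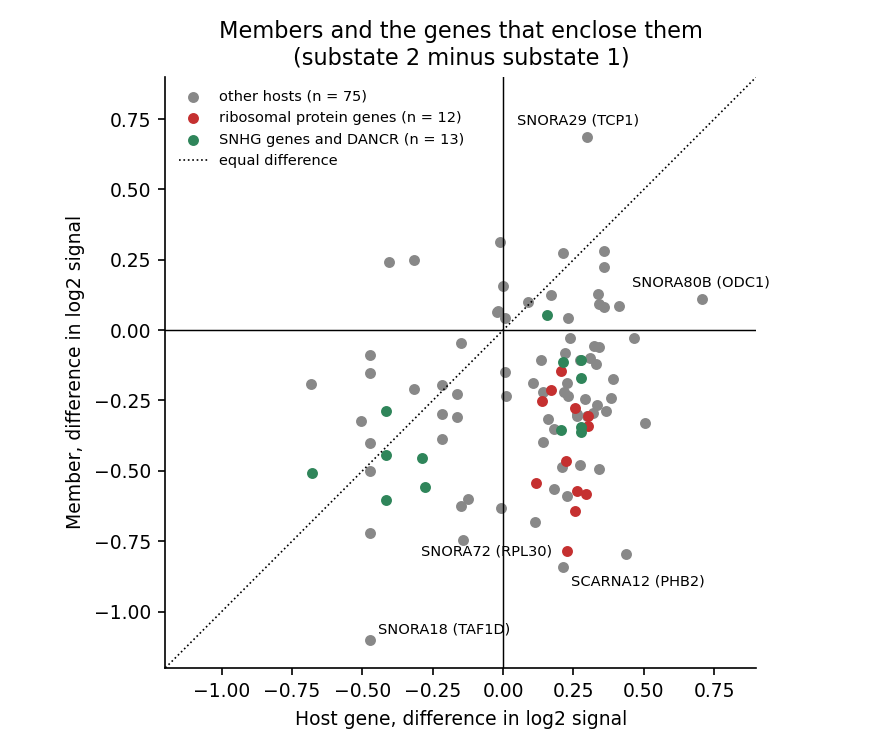
Difference in log2 signal of each member (y axis) against that of the gene that encloses it (x axis), substate 2 minus substate 1, for 100 members in 77 hosts. The lower right field, with the member lower and the host higher, holds 55 points, and all 12 members in ribosomal protein genes (red) lie there, whereas members of SNHG genes and DANCR (green) lie on either side of the vertical line.

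The median gap was -0.65 in ribosomal protein genes, -0.28 in small nucleolar RNA host genes and -0.33 in other hosts. The 12 members in ribosomal protein genes were all lower, from -0.79 (SNORA72 in RPL30) to -0.15 (SNORA27 in RPL21), with a median of -0.40, and their 10 hosts were all higher with a median of 0.22. Examples are SNORA3B in RPL27A (-0.64 against 0.26), SNORA21 in RPL23 (-0.57 against 0.26) and SNORA33 in RPS12 (-0.54 against 0.12). The 1 RPL27A probe was dim for this class, at -0.73 in substate 1 and -0.48 in substate 2. Probes of RPL and RPS genes had median signals of 8.07 and 8.22. Whether the RPL27A probe reads the main transcript was not tested. The hosts were like their class, since 152 of 158 RPL and RPS probes measured on both arrays were higher, also with a median of 0.22. The direction of the hosts depended on scaling, since 4 of the 10 were lower after loess centring, 2 after quantile normalisation and 1 with normexp correction. The members stayed lower in at least 11 of 12 under each of these. Medians of hosts and members were 0.01 and -0.44 after loess centring and 0.04 and -0.42 after quantile normalisation. The size of the gap in this class thus depended on scaling as well.

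Small nucleolar RNA host genes (SNHG genes and DANCR) are transcribed chiefly for the RNAs in their introns. Of 13 members in 8 such hosts 12 were lower, with a median of -0.36, and 4 hosts were higher and 4 lower. Lower hosts held SCARNA17 (SNHG22, -0.68), the 3 members of SNHG12 (-0.42), SNORA24 (SNHG8, -0.29) and SCARNA13 (SNHG10, -0.28). Those 6 members lay between -0.60 and -0.29. Higher hosts held the 4 SNORA71 genes (SNHG17, 0.28), SNORA9 (SNHG15, 0.21), SNORA60 (SNHG11, 0.20) and SNORA26 (DANCR, 0.16), and of these SNORA26 alone was higher, at 0.05, within spot noise and -0.02 after loess centring. Member and host had a Pearson r of 0.67 over the 13 members, which share 8 hosts. It was -0.17 over the 12 in ribosomal protein genes, whose 10 hosts lay only between 0.12 and 0.30. Over the 75 members in 59 other hosts it was 0.22. Members of 1 host repeat its value and the spread of the hosts differs, so these r values do not compare the classes.

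Members also sit in genes for snoRNA proteins or nucleolar proteins. SNORA36A (-0.48) lies in DKC1 (0.27), SNORA51 (-0.11) in NOP56, whose 2 probes gave 0.43 and -0.16, and SNORA75 (-0.08) in the nucleolin gene NCL (0.22). Only SNORA36A was lower by more than spot noise, and SNORA51 and SNORA75 were within it.

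Members from a shared host differed among themselves. TAF1D encloses 6, and their signals in substate 1 and substate 2 were 1.20 and 1.12 for SNORA1, 1.91 and 1.76 for SNORA32, 1.35 and 0.95 for SNORA25, 1.26 and 0.76 for SNORA40, 3.37 and 2.65 for SNORA8 and 2.87 and 1.77 for SNORA18. All 6 were lower, from -0.09 for SNORA1 to -1.10 for SNORA18, and the host, at 3.87 and 3.39, lay within that range at -0.47. SNHG12 encloses SNORA16A (-0.60), SNORA61 (-0.44) and SNORA44 (-0.29), around its own -0.42. In EIF4A2 the members SNORA4 (-0.39), SNORA81 (-0.30) and SNORA63 (-0.20) stood beside -0.22 for the host. In KANSL2, by contrast, SNORA2B had -0.49 while SNORA2C (-0.06) and SNORA2A (0.09) were within spot noise. Of 14 hosts with several member probes, all members were lower in 10 and higher in 1, TBRG4.

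**Figure D5:**
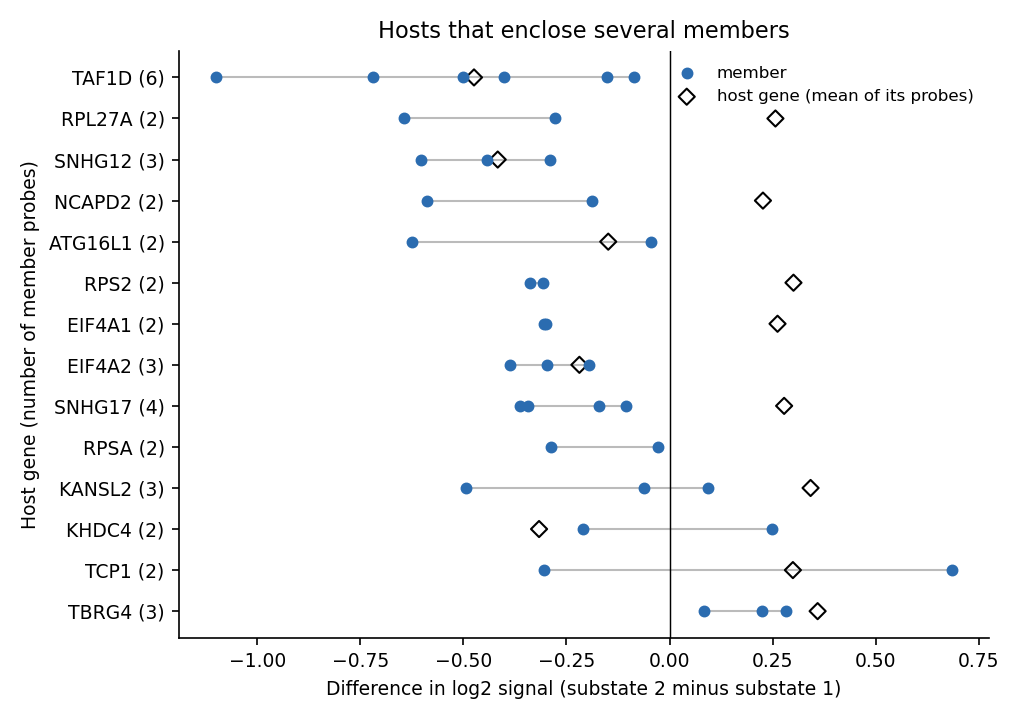
Difference in log2 signal, substate 2 minus substate 1 (x axis), of the members (blue points) of each of 14 hosts that enclose several member probes (y axis, number of probes in brackets) and of the host (open diamond, mean of its probes), with no diamond for RPSA, which had no named probe. The diamonds of TAF1D, SNHG12, EIF4A2, ATG16L1 and TCP1 lie within the range of their members, and those of RPL27A, NCAPD2, RPS2, EIF4A1, SNHG17, KANSL2 and TBRG4 lie to the right of theirs and that of KHDC4 to the left.

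Some hosts enclose snoRNAs of both classes. In 7 hosts that enclose members and C/D box genes, all 15 members were lower with a median of -0.30, and all 12 C/D box probes were lower with a median of -0.28. For comparison, 81.2% of all members and 95.5% of all C/D box probes measured on both arrays were lower, with medians of -0.24 and -0.41. Of the 15 members, TAF1D holds 6 and SNHG12 holds 3, so they are not independent. TAF1D also encloses SNORD5 and SNORD6 (mean -0.67), SNHG12 encloses SNORD99 (-0.65) and RPS12 encloses SNORD100 and SNORD101 (mean -0.55).

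Many snoRNA hosts are known to start with a C followed by a run of pyrimidines, so the start of each host was searched for CTTT within 4 bases before and 8 bases from the annotated start, on the transcribed strand. It was found in 15 of 69 matched hosts (21.7%), against 5.24% of 27305 promoters, and its reverse complement AAAG in 0 of 69, against 3.21%. The 27 members in hosts with CTTT had a median of -0.39 with 24 lower, and the 65 members in matched hosts without it -0.21 with 49 lower. These members are not independent, since TAF1D alone holds 6 of the 27, and SNHG12 and EIF4A2 hold 3 each. The hosts with CTTT had a median of 0.06, with 8 of 14 measured ones higher, and those without it 0.18, with 38 of 51 higher. Below are 60 bases before and 20 bases from the start of 4 hosts with the letters and of DKC1, which lacks them, from RefSeq on GRCh38.p14, with CTTT in capitals. The 4 were chosen, with their values known, because each holds several members that were all lower. They lie at chr11:93741476-93741555 (-) for TAF1D, chr1:28581854-28581933 (-) for SNHG12, chr3:186783517-186783596 (+) for EIF4A2, chr11:8682732-8682811 (+) for RPL27A and chrX:154762804-154762883 (+) for DKC1. A match is a description of the letters only.
TAF1D: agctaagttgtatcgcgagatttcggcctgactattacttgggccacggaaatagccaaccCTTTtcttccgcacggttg
SNHG12: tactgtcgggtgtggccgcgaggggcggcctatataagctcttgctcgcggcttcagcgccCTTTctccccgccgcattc
EIF4A2: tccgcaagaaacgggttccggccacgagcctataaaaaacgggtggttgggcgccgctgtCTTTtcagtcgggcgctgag
RPL27A: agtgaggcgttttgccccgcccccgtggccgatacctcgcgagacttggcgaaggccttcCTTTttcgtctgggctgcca
DKC1: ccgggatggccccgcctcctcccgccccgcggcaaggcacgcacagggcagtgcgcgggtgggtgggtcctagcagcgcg

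The messenger RNAs of the proteins that bind H/ACA RNAs did not share the lower signal of the members. DKC1, the pseudouridine synthase of the particle, had 4.75 in substate 1 and 5.02 in substate 2, a difference of 0.27. NOP10 had 6.39 and 6.70 (0.32), NHP2 had 6.64 and 6.94 (0.30), and GAR1 had 4.72 and 5.09 (0.38). All 4 stayed higher under every scaling. Of all 15998 named genes measured on both arrays 59.8% were higher, with a median of 0.08. Among assembly factors, NOLC1 (0.34), RUVBL1 (0.24) and RUVBL2 (0.35) were higher, and SHQ1 (0.06) and NAF1 (-0.03) lay within 2 SDs of spot noise. The medians were 0.31 for the core proteins and 0.24 for the assembly factors, and after loess centring they were 0.13 and 0.20.

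Cajal body genes were higher in 6 of 8. WRAP53, which brings scaRNAs to the Cajal body, had 0.29, PHAX, the export adaptor of small nuclear RNAs, 0.42, COIL, the coilin gene, 0.12, and TGS1, which makes the trimethyl cap, 0.18. SMN1 and SMN2, whose probes cannot be taken as separate because the genes are near-identical, had 0.21 and 0.30. USPL1 (-0.04) and ICE1 (-0.13) were lower, but both, like COIL, lay within 2 SDs of spot noise. The median of the 8 genes was 0.20, and 0.07 after loess centring. For the release of members from introns, the lariat debranching enzyme DBR1 had 0.46 and the exonuclease XRN2 0.27. PARN, which trims the 3′ ends of H/ACA RNAs, had 0.04, and TENT4B, which adds short tails to them, had -2.82 and -4.12, a difference of -1.30 at a dim probe, which was -0.25 with normexp correction.

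TERC, which ends in an H/ACA domain, had 2.10 and 1.99, a difference of -0.11, within 2 SDs of spot noise. TERT, the telomerase protein, had 2.65 and 2.28, a difference of -0.38. Of the pseudouridine synthases that need no guide RNA, 8 of 10 measured were higher, from RPUSD1 (0.10) and PUSL1 and TRUB1 (both 0.12) through PUS7 (0.19), PUS1 (0.20) and RPUSD4 (0.21) to RPUSD2 (0.32) and TRUB2 (0.35), and PUS3 (-0.03) and RPUSD3 (-0.01) were level. RPUSD1, PUSL1 and TRUB1 lay within 2 SDs of spot noise, and with loess centring 4 of the 10 were lower. The core proteins of the C/D box class had a median of 0.16, with FBL at 0.16, NOP58 at 0.17 and SNU13 at 0.39 as the mean of 2 probes, but 3 of the 4 were lower after loess centring and 2 after quantile normalisation.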

How the data were processed

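RNA of H9 cells was measured on 2 single-colour Agilent arrays, 1 per substate, both from 1 slide and 1 scan. The authors deposited scanner output with an intensity per spot, which per the file headers Feature Extraction 11.5.1.1 had corrected for background and spatial trend, and a matrix of log2 values, which per their methods were floored at 1 and shifted by the 75th percentile. Array flags deposited beside them, as other whole-number codes, gave detection and outliers. The matrix differed from the values computed here by 0.006 and 0.005, 1 constant per array, for 100% of probes within 0.01. Its column medians were -3.563 and -3.607.

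Here the processed signal was floored at 1 and log2-transformed. Outlier spots were left out, a probe's spots averaged and the array's 75th percentile over all non-control probes was subtracted. A probe was detected where all its spots were well above background. Each member had 1 spot per array. The size rules were a 2-fold difference, set here, and a Z-score of 2 over all probes, which follows the study's methods. Probes were named through RefSeq accessions in a GRCh38.p14 gene table (31104 of 58201 matched, 53.4%). The array is annotated on hg19, so only coordinates of printed sequences are given. The table has no strand, so a host is the single enclosing gene on either strand, small RNA genes, LOC symbols and read-through transcripts left out, and its value is the mean of its detected probes. Of 82 host genes 69 had a promoter entry. No genome was used, and member sequences outside microRNA hairpins were not analysed here.

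Members and lists were chosen with earlier results of these data known. By rule the text names members 2-fold apart, the 5 lowest, 5 highest and 5 brightest with their hosts, members with 2 probes, all SCARNA genes and the genes of the protein lists, while members of families, of shared hosts and of host classes were named after their values were seen. Alternatives were normexp correction (offset 50, limma 3.58.1 in R 4.3.3), run on the median in place of the mean spot signal, 2 other centrings, quantile normalisation, loess centring (span 0.3), outlier spots kept, the deposited matrix, and other filters and spreads. The calculation was tested on simulated data, with planted differences larger than that of any member. Recovery of smaller ones, such as the member median, was not tested.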

Additional observations from a re-analysis of the deposited data

How the results depend on the processing

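No paired analysis was possible because each group had 1 array. The member median lay between -0.30 (75th percentile over probes detected on both arrays, 99 members lower) and -0.18 (normexp correction, 88 lower), and its distance from the median of all detected probes between -0.30 and -0.25. SNORA18 was the 1 member 2-fold or more lower and 0 were higher under every scaling and filter run. The count with a Z-score of -2 or less did depend on the setting. It was 0 with the SD of all probes, 25 with normexp correction, 4 (SCARNA1, SCARNA12, SNORA18 and SNORA72) with the mean and SD of probes detected on both arrays, and 16 with an SD estimated by the median absolute deviation. The last 2 settings divide by a smaller SD, and for normexp the cause was not tested. Single members changed sign in 9 cases with normexp correction, 4 each with quantile, loess and the detected-probe percentile, and 3 with median centring. With 1 array per group, the spread between cultures is unknown, and signals near background, such as those of SCARNA15 and SNORA29, are the least certain.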
